A study of Mus musculus with 12 samples.

Results

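Complement components and regulators were followed across adipocyte differentiation in 3T3-L1, an established line of mouse fibroblasts that can be driven by hormones to become fat-storing adipocytes. The 8 genes were picked by name out of a table of 55487 genes and comprise C3, C4b, C2, C1ra, C1s1, Cfb, Cd55 and Serping1. Each symbol stood in a single row, and all 8 passed the filter on low values (2 or more of the 12 libraries at a TPM of at least 1). However, Cd55 passed it through a single group and Serping1 through shFto libraries alone. TPM is a transcript level that is corrected for transcript length and scaled to the same total in every library.

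The cells carried a lentiviral hairpin without a target gene (shScram) or a hairpin against Fto (shFto), the demethylase that removes m6A from RNA, and all of them had been selected in puromycin. Which of the study's Fto hairpins the sequenced cells carried is not stated in the sources used here. Libraries came from growth-arrested preadipocytes (Pre), from the mitotic clonal expansion stage under IBMX, dexamethasone and insulin (MCE), and from the later differentiation stage on insulin (Diff), with 2 libraries in each of 6 groups. Diff names a stage and not a cell type, since most adipocyte markers were lower in shFto there, as given below. Nothing in the labels says that replicates were separate cultures, so p-values measure the spread between these libraries, which may be technical.

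Complement is a cascade of plasma proteins that marks and opens microbes and damaged cells. In the classical route the proteases C1r and C1s, held in the C1 complex, cut C4 and then C2, and the fragments join into an enzyme that cuts C3, the central protein of all routes. In the alternative route factor B joins deposited C3b and is cut by factor D, also known as adipsin, which amplifies the cutting of C3. Brakes on the system include the C1 inhibitor encoded by Serping1, which blocks C1r and C1s, and CD55, a membrane protein that takes the C3-cutting enzymes apart. The liver makes most of these proteins, and adipose tissue is a known source of C3, factor B and adipsin.

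Fto itself was low in every shFto library. Its TPM in shScram was 52.7 and 58.3 (Pre), 59.1 and 55.7 (MCE), and 73.5 and 70.8 (Diff), against 5.51 and 5.55, 6.32 and 6.03, and 7.47 and 7.05 in shFto. The treatment entry of shScram replicate 1 at Diff names the knockdown, but its Fto level lay with the other shScram libraries and its title was followed. The 2 shScram libraries at Pre were less alike than those of the other groups (r = 0.9388 on log2 values across genes, against 0.9896 to 0.9934). This r cannot say which of them differs. Replicate 1 is taken as the one that stood apart, because it had 21290 genes above 0. Replicate 2 had 23374, and the shFto libraries at Pre had 23215 and 23173. Calls that changed when either library was left out are given with the results. All 10 fibroblast markers were detected, while the 8 hepatocyte markers and 7 of 8 endothelial markers were below 1 TPM in every library.

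Before the values, the sequence just ahead of the transcription start is shown for the 3 most abundant of these genes, because C3, C1ra and C1s1 were the 3 called in all 4 comparisons between stages. Each line gives the 250 bases before the RefSeq start on GRCm38.p6, read 5′ to 3′ on the gene's own strand. Capitals mark matches to TTNNGNAA on either strand, the letters at the core of sites of C/EBP factors, which are transcription factors of the early adipogenic program. The windows lie at chr17:57228137-57228386 on the minus strand for C3, at chr6:124512371-124512620 on the plus strand for C1ra, and at chr6:124542360-124542609 on the minus strand for C1s1. For C1ra the RefSeq and GENCODE starts differ. The GENCODE gene starts at chr6:124512405, inside the window, and both marked matches lie after that start.
C3: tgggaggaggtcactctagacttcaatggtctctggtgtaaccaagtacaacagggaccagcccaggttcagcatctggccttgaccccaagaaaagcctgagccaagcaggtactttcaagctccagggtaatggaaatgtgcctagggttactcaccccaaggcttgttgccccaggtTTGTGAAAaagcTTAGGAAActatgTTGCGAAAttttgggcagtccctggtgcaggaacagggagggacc
C1ra: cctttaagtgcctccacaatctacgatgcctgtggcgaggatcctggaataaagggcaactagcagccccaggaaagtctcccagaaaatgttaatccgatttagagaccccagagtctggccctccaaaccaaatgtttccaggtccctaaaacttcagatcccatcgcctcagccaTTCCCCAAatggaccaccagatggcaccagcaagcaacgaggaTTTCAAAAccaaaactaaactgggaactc
C1s1: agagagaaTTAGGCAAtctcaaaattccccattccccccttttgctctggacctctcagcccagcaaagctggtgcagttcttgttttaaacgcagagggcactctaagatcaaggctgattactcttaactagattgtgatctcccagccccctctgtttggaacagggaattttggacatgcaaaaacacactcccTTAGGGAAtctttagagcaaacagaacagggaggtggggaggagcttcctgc

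The C3 window held 3 matches, at 70 to 63, 58 to 51 and 45 to 38 bases before the start. C1ra had 2, at 72 to 65 and 29 to 22 bases, and the upstream C1s1 window had 2, at 242 to 235 and 52 to 45 bases. Such a match is common, since 36.8% of 32851 RefSeq promoter windows of the same length held at least 1. No window of these genes, nor that of Cd55, held GAAANNGAAA (interferon response, 2.98% of windows), TTCNNNGAA (STAT, 7.02%), the kappaB motif (7.25%) or ACANNNTGT (glucocorticoid receptor, 5.84%), each searched on both strands. These matches are letters in a window and were not tied to the levels. Promoter sequences were matched for 4 of the 8 genes.

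C3 exceeded the other complement genes once differentiation had begun, and under the knockdown of Fto the genes moved in opposite directions. At MCE and Diff, C3 was lower in shFto while C4b and Serping1 were higher. C1ra and C1s1 fell at MCE and rose at Diff in both lines. Cfb and C2 lay between 0.628 and 6.47 TPM in all libraries.

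**Figure D1:**
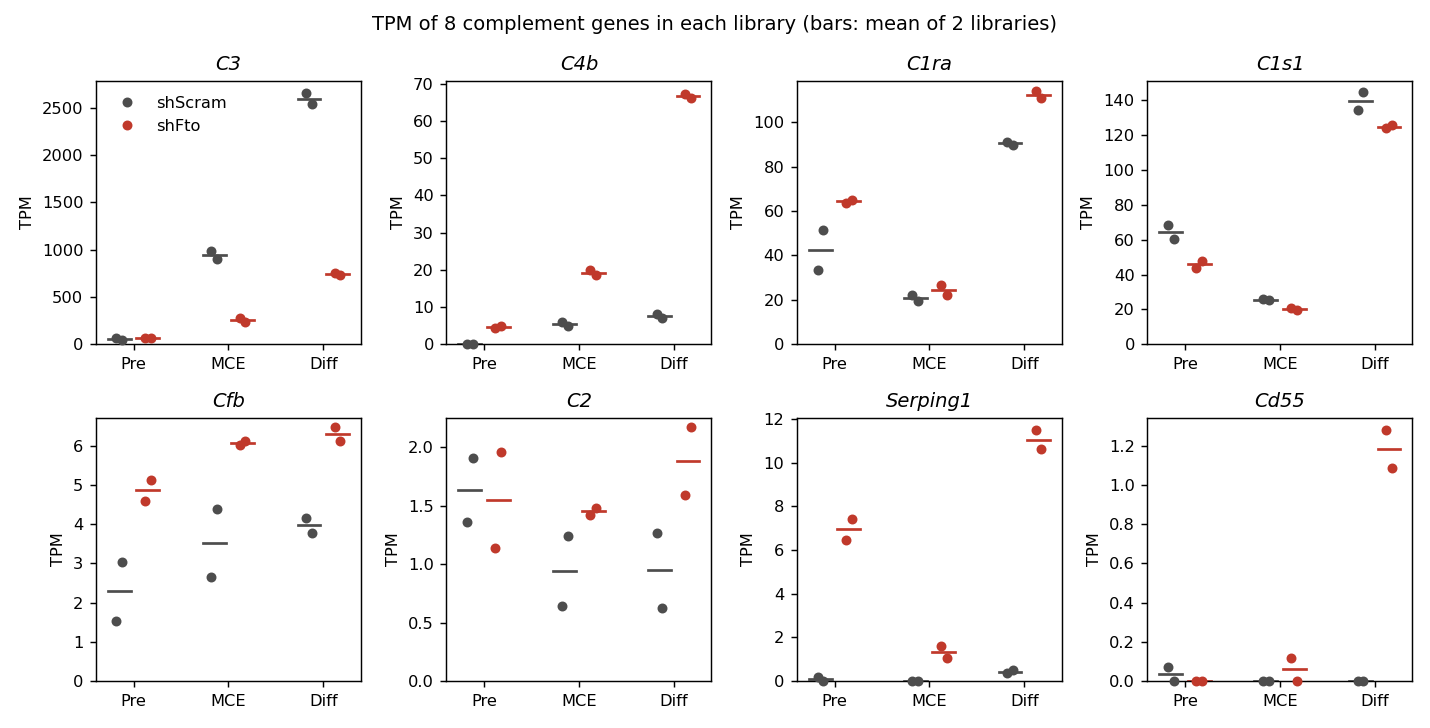
TPM of the 8 complement genes (vertical axis, a separate linear scale from 0 for each gene) at Pre, MCE and Diff (horizontal axis) in shScram (grey) and shFto (red). Points are single libraries and bars the mean of 2; C3 reached 2653 TPM in shScram and 755 in shFto at Diff, whereas C4b reached 8.08 in shScram and 67.3 in shFto.

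Read as an order of levels, C1s1, C3 and C1ra led in shScram preadipocytes, with mean TPM of 64.4, 54.3 and 42.4, and their neighbours could not be separated because the libraries overlapped. From MCE on C3 came first in both lines, with no overlap with the next gene. At MCE in shFto the 3 genes after it, C1ra, C1s1 and C4b, lay close together with means of 24.4, 20.3 and 19.2 TPM, against 20.9, 25.5 and 5.50 in shScram. The 8 genes summed to 167 and 164 TPM in shScram and 195 and 196 in shFto at Pre, and to 2893 and 2787 against 1081 and 1060 at Diff. C3 made up 28.5% to 37.1% of that sum at Pre in the 4 libraries. At Diff its share was 91.7% and 91.1% in shScram and 69.8% and 69.5% in shFto. Without C3 the order of the lines turned: the other 7 genes summed to 239 and 247 TPM in shScram and to 326 and 323 in shFto at Diff.

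Differences were tested with limma on log2(TPM + 1) over the 15968 genes past the filter, and a gene was called at an adjusted p under 0.05. Fold changes on this scale understate the change of genes near or below 1 TPM. Between the lines at Pre, 5 genes were called (C4b, Serping1, C1ra and Cfb higher in shFto, C1s1 lower), where 28.2% of all tested genes were. At MCE 3 were called (C4b and Serping1 higher, C3 lower) beside 17.8% of all, and at Diff the same 3 beside 21.2%. Cd55, which entered the test through the shFto libraries at Diff alone, is left out of these counts and described by its levels. Serping1 is counted here and in the medians, although it passed the filter through shFto libraries alone, so its calls carry that limit. The median log2 difference of the other 7 genes was 0.62, 0.35 and 0.55 at the 3 stages, against 0.08, 0.05 and 0.03 over all tested genes.

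The library that stood apart weighed on these counts. Without shScram replicate 1 at Pre, 4 genes were called at Pre (C3, C4b and Serping1 higher, C1s1 lower) beside 29.0% of all genes, 5 at MCE beside 41.0% and 5 at Diff beside 45.7%. The additions were C1s1 and Cfb at MCE and C1ra and Cfb at Diff. The same genes were called at MCE and Diff when replicate 2 of that group was left out instead, beside 41.0% and 45.6% of all genes. When an shFto library at Pre was left out, 2 genes were called at Pre, C4b and Serping1, beside 7.32% of all genes without replicate 1 and 9.88% without replicate 2. With shScram replicate 1 at Diff left out, C1ra and Cfb were no longer called at Pre (beside 20.9% of all genes), and the 3 genes called at Diff were the same (beside 11.2%). C4b and Serping1 at all stages and C3 at MCE and Diff were called without either library. At Pre, C3 was called without shScram replicate 1 of that stage but not without replicate 2, and C1ra and Cfb the reverse.

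**Figure D2:**
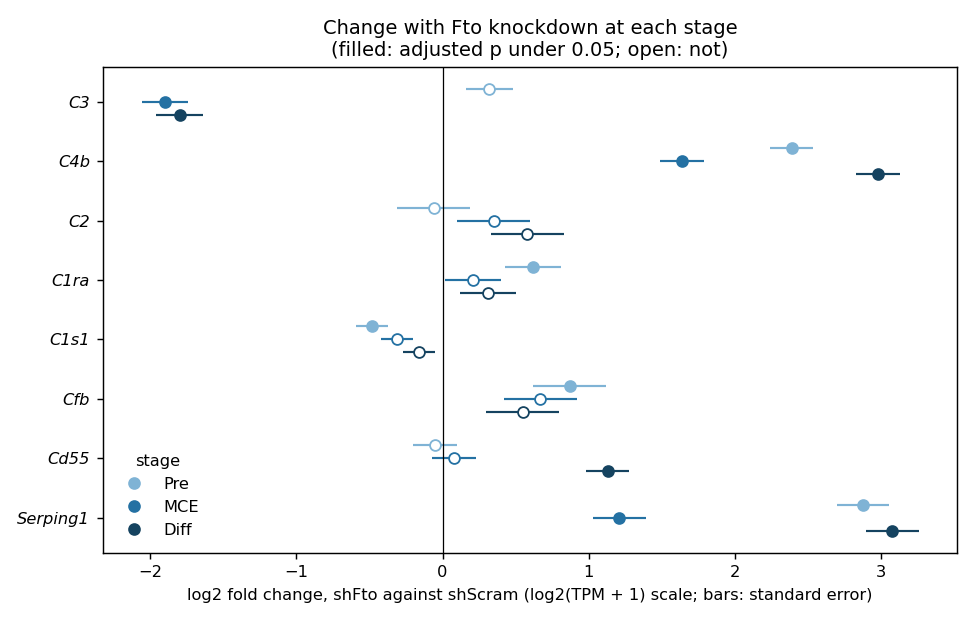
Log2 fold change of shFto against shScram (horizontal axis, log2(TPM + 1) scale) for each of the 8 genes at Pre, MCE and Diff (light to dark), with standard errors as bars; filled points had a limma adjusted p under 0.05. C4b and Serping1 lie to the right at all 3 stages, and C3 moves from 0.32 at Pre to -1.90 at MCE and -1.80 at Diff. Cd55 entered the test through the shFto libraries at Diff alone, and Serping1 through shFto libraries alone.

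Among the components, C3 is the protein on which every route converges, and its gene lies at chr17:57203970-57228136 on the minus strand of GRCm38. At Pre its TPM was 61.8 and 46.7 in shScram and 70.7 and 64.2 in shFto. At MCE it was 984 and 903 in shScram and 275 and 229.9 in shFto. At Diff it was 2653 and 2540.3 in shScram and 755 and 737 in shFto. Thus both lines rose at each step, the shFto libraries were slightly above the shScram libraries at Pre, and from MCE on they were below them.

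The knockdown left C3 at 26.7% of the shScram mean at MCE (log2 fold change -1.90, SE 0.16, limma adjusted p = 8.93e-05) and at 28.7% at Diff (-1.80, SE 0.16, adjusted p = 8.68e-05). At Pre the difference was 0.32 (SE 0.16, adjusted p = 0.14). Without the shScram library that stood apart it was 0.52, the highest value under the alternatives of the closing section, where the lowest was 0.01. From Pre to MCE the mean rose 17.4-fold in shScram and 3.74-fold in shFto, and this step differed between the lines by -2.22 (SE 0.22, limma adjusted p = 0.00114). Between MCE and Diff the rise was 2.75-fold and 2.96-fold, and the difference between the lines was 0.10 (SE 0.22, adjusted p = 0.907). Over the whole course C3 rose 47.9-fold in shScram and 11.1-fold in shFto. The gap between the lines thus opened at the MCE stage, and no further change in it was detected afterwards. In RNA from whole cultures, fewer cells making a transcript and less of it per cell cannot be told apart.

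Most adipocyte markers were lower in shFto at MCE and Diff, as C3 was. Cebpa was called in no comparison between the lines, and Adipoq was not called at MCE. Lpl fell from Pre to MCE in shScram (-0.72), where C3 rose. Of the 9 markers tested (of 10; Lep was below 1 TPM in every library), 6 were lower in shFto and Lpl was higher at MCE, where 17.8% of all tested genes were called, and 7 were lower at Diff, where 21.2% were. The lower markers include Retn at both stages, which passed the filter through shScram libraries alone. Their summed level was 192 and 133 TPM in shScram and 268 and 299.6 in shFto at Pre, 378 and 377 against 267 and 275 at MCE, and 1529 and 1519 against 457 and 418 at Diff. Fabp4, a fatty acid carrier of adipocytes, had the pattern most like that of C3, with r = 0.993 on log2 values over the 12 libraries, followed by Folh1 (r = 0.991) and Hacd2 (r = 0.985) out of 10796 candidate genes. These libraries share their groups, so the values are a description. What part the makeup of the cultures has in the level of C3 was not tested.

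C4b encodes C4, the substrate of C1s, and lies at chr17:34728380-34743882 on the minus strand. At Pre it was listed at 0 and at 0.162 TPM in shScram and at 4.42 and 4.92 in shFto. At MCE the values were 5.97 and 5.03 against 19.9 and 18.6, and at Diff 8.08 and 7.06 against 67.3 and 66.0. Every shFto library thus exceeded both shScram libraries of its stage, and the gap widened in TPM from stage to stage.

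The difference between the lines was 2.39 at Pre (SE 0.15, limma adjusted p = 3.7e-05), 1.64 at MCE (adjusted p = 0.000143) and 2.98 at Diff (adjusted p = 3.67e-06) on the log2(TPM + 1) scale, or 3.50-fold at MCE and 8.81-fold at Diff in mean TPM. The transcript rose from Pre to MCE in both lines, by 2.59 in shScram and 1.84 in shFto. The further step to Diff was 1.74 in shFto (adjusted p = 0.000128) and 0.40 in shScram (adjusted p = 0.0807, and 0.02 without shScram replicate 1 at Pre), and the difference between these steps was 1.34 (SE 0.21, adjusted p = 0.0144). Without shScram replicate 1 at Diff it was 1.43 (adjusted p = 0.046). With a pseudocount of 0.1 that difference was 1.33 with an adjusted p of 0.302. The genes most like C4b were Hp, Saa3 and Stat3 (r = 0.981, 0.981 and 0.971), the first a haemoglobin-binding acute phase protein, the second an acute phase amyloid and the third a signal transducer of the IL-6 family.

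Of the 50-base words in C4b transcripts, 34.6% also occur in C4a, its neighbouring copy, which was listed at 0.657 to 5.25 TPM. When the 2 copies were summed, the line differences were past the threshold at all 3 stages (1.64, 1.46 and 2.67), while the difference between the steps to Diff was 1.21 (adjusted p = 0.261).

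C2, the protease that pairs with C4b, remained near the limit of detection. Its TPM in shScram was 1.36 and 1.91 at Pre, 0.646 and 1.24 at MCE, and 1.27 and 0.628 at Diff. The shFto libraries were at 1.14 and 1.96, 1.42 and 1.48, and 1.59 and 2.18. The lines overlapped at Pre and did not at MCE and Diff, yet no comparison of C2 passed the test; at Diff the difference was 0.58 (SE 0.25, limma unadjusted p = 0.0497, adjusted p = 0.148). Some of its sequence lies in a read-through gene, Gm20547, and an exon overlaps Zbtb12 on the other strand, so its low values are uncertain.

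The classical-route proteases followed a course of their own. C1ra (chr6:124512405-124523443, plus strand) and C1s1 (chr6:124530345-124542359, minus strand) are neighbours and encode the C1r and C1s proteases. In shScram C1ra was at 33.4 and 51.3 TPM at Pre, 22.3 and 19.6 at MCE, and 91.0 and 90.0 at Diff. The shFto values were 63.8 and 64.9, 26.5 and 22.3, and 114 and 111. MCE libraries were thus the lowest in both lines and Diff libraries the highest, without overlap between stages.

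C1s1 was at 68.3 and 60.5 TPM at Pre, 25.7 and 25.3 at MCE, and 134 and 145 at Diff in shScram. The shFto libraries held 44.0 and 47.6, 20.8 and 19.9, and 124 and 126. The course was again lowest at MCE, and at each stage both shFto libraries lay below both shScram libraries.

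From Pre to MCE, C1ra fell by 0.95 in shScram and by 1.37 in shFto, and C1s1 fell by 1.30 and by 1.13 (limma adjusted p between 4.89e-05 and 0.00436). Without shScram replicate 1 at Pre these steps in shScram were -1.26 for C1ra and -1.21 for C1s1. Later, up to Diff, C1ra rose by 2.06 and 2.16 and C1s1 by 2.41 and 2.56 (adjusted p between 1.2e-05 and 0.000189). No difference between the lines in these steps was detected, with interaction values from -0.41 to 0.32 for both genes. Over the 12 libraries C1ra and C1s1 had the highest correlation of any pair of members (r = 0.903). C1s2, a close copy of C1s1, was the gene most like C1s1 (r = 0.990), and Nrbp2, Ccdc9b and Anxa6 were most like C1ra (r = 0.984 to 0.979).

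Between the lines, only the Pre stage gave calls for this pair, and in opposite directions: C1ra was higher in shFto by 0.62 (SE 0.19, limma adjusted p = 0.0379) and C1s1 was lower, with a log2 fold change of -0.48 (SE 0.11, adjusted p = 0.0157). The ratio of C1ra to C1s1 was 0.490 and 0.848 in shScram and 1.45 and 1.36 in shFto at Pre, 0.867 and 0.776 against 1.27 and 1.12 at MCE, and 0.678 and 0.621 against 0.919 and 0.882 at Diff. At every stage the ratio in shFto was above that in shScram, with no overlap. Without shScram replicate 1 at Pre the difference of C1ra was 0.32, which was not called, and that of C1s1 was -0.39. Over the alternatives of the closing section they ranged from 0.32 to 0.92 and from -0.62 to -0.39.

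Both proteases have tandem copies. C1ra shares 48.0% of its 50-base words with C1rb, and C1s1 shares 21.8% with C1s2. Summed with C1rb, C1ra differed between the lines by 0.41 at Pre (adjusted p = 0.0763), -0.09 at MCE and 0.00 at Diff, so its higher level in shFto cannot be assigned to one copy. The stage changes of both genes passed the test after summing.

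Cfb encodes factor B, the protease precursor of the alternative route, and lies next to C2 at chr17:34856374-34862518. Its TPM in shScram was 1.53 and 3.04 at Pre, 2.65 and 4.38 at MCE, and 4.16 and 3.78 at Diff. The knockdown line had 4.60 and 5.11, 6.02 and 6.13, and 6.47 and 6.13. All 6 shFto libraries were above all 6 shScram libraries.

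That difference was called at Pre (0.87, SE 0.25, limma adjusted p = 0.0324), where it ranged from 0.53 to 1.21 over the alternatives. The call was lost without shScram replicate 1 at Pre (0.53). At MCE it was 0.67 (adjusted p = 0.0994) and at Diff 0.55 (adjusted p = 0.154); without that library they were called, with adjusted p of 0.0135 and 0.0304. No stage step of Cfb passed the test in either line. Prdx5, Ppard and Hyou1 were most like Cfb (r = 0.974 to 0.966). Of its 50-base words 73.0% also stand in the read-through gene Gm20547.

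Among the regulators, Serping1 (chr2:84765387-84775444, minus strand) encodes the inhibitor of C1r and C1s and separated the lines at all stages. In shScram it was listed at 0.165 and 0 TPM at Pre, at 0 in both libraries at MCE, and at 0.370 and 0.486 at Diff. The shFto line held 6.47 and 7.42 TPM at Pre, 1.61 and 1.04 at MCE, and 11.5 and 10.6 at Diff. Even the lowest shFto library was above the highest shScram library of any stage. The gene thus passed the filter through shFto libraries alone, and with no filter on low values it was called between the lines at all 3 stages as well.

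The difference was 2.88 at Pre (SE 0.18, limma adjusted p = 3.53e-05), 1.21 at MCE (adjusted p = 0.00192) and 3.08 at Diff (adjusted p = 7.83e-06) on the log2(TPM + 1) scale, and 25.9-fold in mean TPM at Diff. In shFto it fell by 1.78 from Pre to MCE and rose by 2.39 from MCE to Diff, whereas the steps in shScram were -0.11 and 0.51 (adjusted p = 0.642 and 0.0628). The second of these was called without shScram replicate 1 at Pre (adjusted p = 0.0342) and with a pseudocount of 0.1 (2.39, adjusted p = 0.00759). The steps differed between the lines by -1.67 (SE 0.25, adjusted p = 0.00727) and 1.87 (SE 0.25, adjusted p = 0.00591), the latter 1.81 without shScram replicate 1 at Diff (adjusted p = 0.0339). With a pseudocount of 0.1 the differences between the lines were -1.63 (adjusted p = 0.205) and 0.61 (adjusted p = 0.79), since the shScram values near 0 then weigh more. The genes most like Serping1 were Lama5, Lrrc8d and Heg1 (r = 0.982 to 0.977). None of its 50-base words occurred in another gene.

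At MCE and Diff the shFto libraries exceeded the shScram libraries in the summed level of the fibroblast markers, as they did in C4b, Cfb and Serping1. The sum was 5383 and 9350 TPM in shScram and 8182 and 8239 in shFto at Pre, 5026 and 4585 against 7006 and 6548 at MCE, and 7544 and 7198 against 10758 and 11221 at Diff. The lines overlapped at Pre and did not at MCE and Diff. At MCE the gap lay mostly in Col3a1, at 859 and 747 TPM in shScram and 2915 and 2647 in shFto. Means of Col1a2, Dlk1, Ly6a and Cd34 were lower in shFto there and those of the other markers higher, so the sum does not stand for every marker. Of the 10 markers, 3 were called higher and 2 lower at Pre, 3 higher (Dcn, Col3a1 and Thy1) and 1 lower (Dlk1) at MCE, and 3 higher (Col3a1, Thy1 and Ly6a) at Diff, where 28.2%, 17.8% and 21.2% of all tested genes were called. The lower markers at Pre include Cd34, which passed the filter through shScram libraries alone. What part the fibroblast markers have in the levels of these complement genes was not tested.

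Cd55 (chr1:130439027-130462744, minus strand) was barely present. It was listed at 0.0709 and 0 TPM at Pre and at 0 in the 4 later libraries of shScram. In shFto it was at 0 in both Pre libraries, at 0.117 and 0 at MCE, and at 1.28 and 1.09 at Diff. Hence the 2 shFto libraries at Diff were the ones above 1 TPM, and the gene passed the filter through them alone.

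Since those libraries admitted the gene to the test, its values are a description. At Diff its difference between the lines was 1.13 on the log2(TPM + 1) scale, and from MCE to Diff in shFto it changed by 1.05. An antisense gene, Gm16083, overlaps an exon of Cd55, and the sources used here do not say if reads were counted by strand. The copy Cd55b was listed at 0 in every library.

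Between stages, C3 and C4b rose and C1ra and C1s1 fell on the way to MCE in both lines, and C3, C1ra and C1s1 rose afterwards in both. In the first step 4 genes were called in shScram (C3 and C4b higher, C1ra and C1s1 lower) beside 39.1% of all tested genes, and 5 in shFto (Serping1 lower in addition) beside 28.7%. In the second step 3 were called in shScram (C3, C1ra and C1s1 higher) beside 25.2%, and 5 in shFto (C4b and Serping1 higher in addition) beside 26.7%. Without shScram replicate 1 at Pre the same 4 were called in shScram in the first step beside 48.1%, and in the second step C4b and Serping1 were called in addition beside 52.0%. No call in these steps changed without shScram replicate 1 at Diff. Median log2 steps of the 7 genes other than Cd55 were -0.11 and -0.04 from Pre to MCE in shScram and shFto, and 0.51 and 1.74 from MCE to Diff. Over all tested genes they were -0.17, -0.18, 0.23 and 0.17, a shift that scaling between libraries removed.

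**Figure D3:**
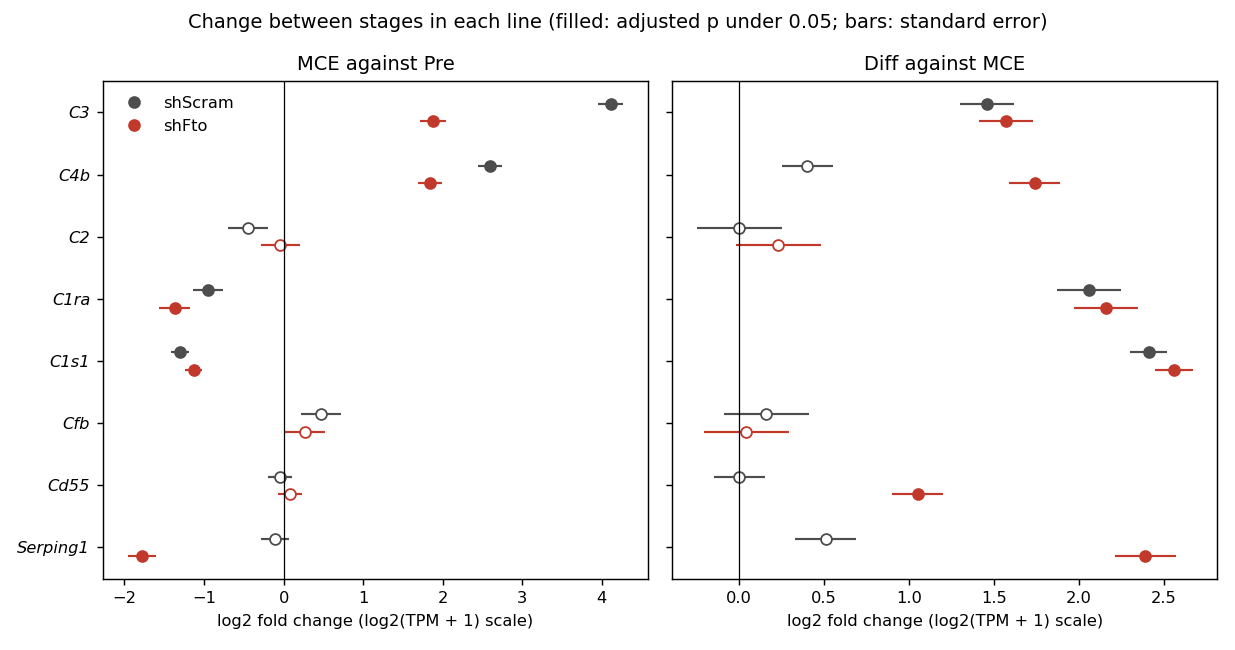
Log2 fold change (horizontal axes, log2(TPM + 1) scale) of the 8 genes from Pre to MCE (left) and from MCE to Diff (right) in shScram (grey) and shFto (red), with standard errors as bars; filled points had a limma adjusted p under 0.05. C3 rose by 4.11 in shScram and 1.88 in shFto in the left panel and by 1.46 and 1.57 in the right panel, where Serping1 rose by 2.39 in shFto. Cd55 entered the test through the shFto libraries at Diff alone, and Serping1 through shFto libraries alone.

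Whether the effect of the knockdown differed between stages was tested directly. For MCE against Pre 2 genes were called (C3 and Serping1, both with a lower shFto-to-shScram difference at MCE) beside 5.11% of all tested genes. For Diff against Pre C3 (-2.12, SE 0.22, limma adjusted p = 0.000986) was called beside 7.67%, and without shScram replicate 1 at Pre C4b was called as well (0.70, adjusted p = 0.0332) beside 17.8%. For Diff against MCE C4b and Serping1 were called, both with a higher difference at Diff, beside 2.49%. Cd55 is again left out, and Serping1 passed the filter through shFto libraries alone. The C3 interactions were past the threshold without shScram replicate 1 at Pre (-2.42 and -2.32) and without shScram replicate 1 at Diff (-2.22 and -2.09).

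The rest of the pathway was mostly silent in these cells. Of 44 other complement genes, 17 passed the filter. Among those that did not were the 3 chains of C1q (C1qa, C1qb and C1qc), the recognition unit of the classical route. Of the terminal genes C8g alone passed, and of the receptors Itgb2 alone, an integrin chain of leukocytes.

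**Figure D4:**
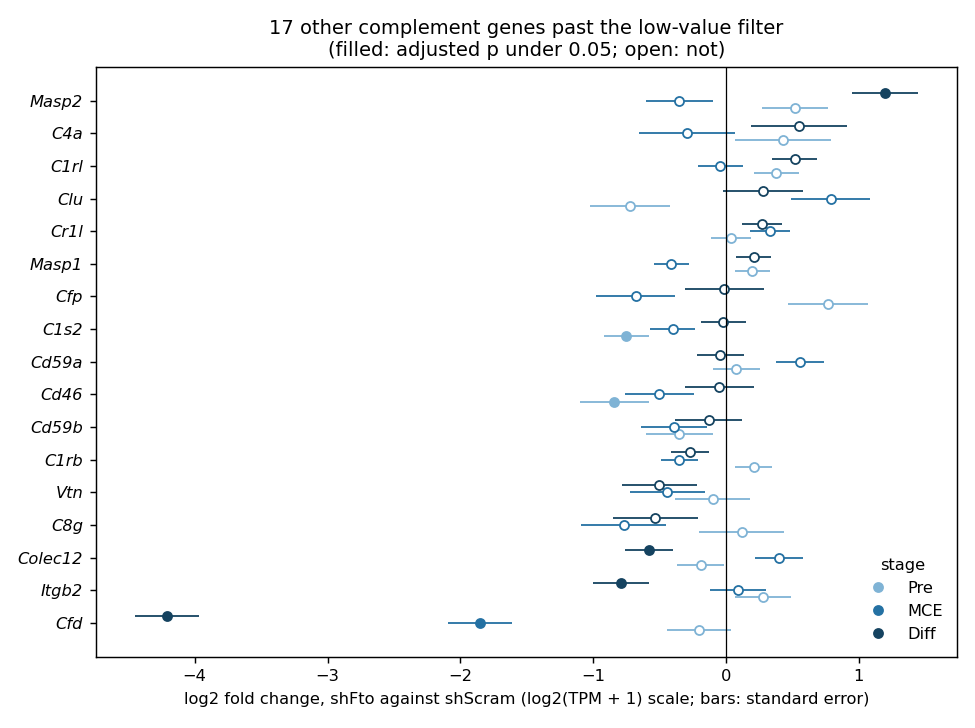
Log2 fold change of shFto against shScram (horizontal axis, log2(TPM + 1) scale) at Pre, MCE and Diff (light to dark) for the 17 other complement genes past the filter, ordered by the value at Diff; bars are standard errors and filled points had a limma adjusted p under 0.05. Cfd reaches -4.21 at Diff, and most other genes lie near 0.

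Of these 17 genes, 0 were called higher and 2 lower in shFto at Pre (Cd46 and C1s2), 0 and 1 at MCE (Cfd), and 1 and 3 at Diff (Masp2 higher; Cfd, Itgb2 and Colec12 lower). Of all tested genes 28.2%, 17.8% and 21.2% were called at these stages. The median differences of the 17 genes were 0.08, -0.35 and -0.04. Cfd, which encodes adipsin, the protease that cuts factor B in the alternative route, was lower in shFto at MCE and Diff. It was listed at 0 and 0.320 TPM at Pre, 3.74 and 3.16 at MCE and 52.3 and 49.6 at Diff in shScram. In shFto it was at 0 in both Pre libraries, at 0.124 and 0.346 at MCE and at 2.50 and 1.25 at Diff. The shFto mean was 3.67% of the shScram mean at Diff (log2 fold change -4.21, SE 0.24, limma adjusted p = 7.08e-06), and the knockdown effect was larger at Diff than at MCE by -2.36 (adjusted p = 0.0085).

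Over the stages C1rb and C1s2 moved in the same directions as C1ra and C1s1. C1rb fell by 0.75 in shScram and by 1.32 in shFto from Pre to MCE and rose by 2.04 and 2.12 to Diff, and C1s2 fell by 1.39 and by 1.04 and rose by 2.21 and 2.59 (limma adjusted p of 0.00414 or less). C4a did not follow C4b from Pre to MCE, with steps of -0.22 in shScram and -0.94 in shFto, neither of which passed the test. Of the 17 genes, 1 rose and 8 fell from Pre to MCE in shScram, and 0 rose and 8 fell in shFto, where 39.1% and 28.7% of all tested genes were called and 4294 and 3180 of them fell. Up to Diff 10 rose and 1 fell in shScram, and 10 rose and 0 fell in shFto, beside 25.2% and 26.7% of all tested genes.

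Among the 8 members, pairs across the 12 libraries ranged from r = -0.479 for C3 and C2 to r = 0.903 for C1ra and C1s1. C4b went most closely with Cfb (r = 0.836), whereas C3 and Serping1 had r = -0.136. The r of C4b with Cd55 (0.721) is a description. Cd55 passed the filter through the shFto libraries at Diff alone, the group in which C4b was highest.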

How the data were processed

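The study's methods describe fragmented RNA with a selected 40 to 60 nt fraction for cells treated with rhein. The paper does not say if the shScram and shFto libraries were made that way. Per the study's methods, reads were trimmed (Trim Galore 0.6.5) and mapped to GRCm38 (HISAT2 2.1.0), and the authors deposited gene-level TPM made by StringTie 2.1.4. The authors used DESeq2 1.30.1 on counts, which were not used here. TPM keeps no depth, so depth per library is unknown; 20853 to 24018 genes per library were above 0. Rhein-treated cells were not used here.

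Groups followed the titles. Log2(TPM + 1) of 15968 of 55487 genes (at least 2 libraries at 1 TPM or more) was tested with limma 3.58.1 in R 4.3.3 (6 group means, trended eBayes); p-values were two-sided and Benjamini-Hochberg adjusted over all tested genes. The fit was tested on simulated data. Other steps used Python 3.11.15, numpy 2.4.6, pandas 2.3.3, scipy 1.17.1 and matplotlib 3.10.9. Coordinates came from GENCODE M21 (99.4% of identifiers matched) and promoters from RefSeq. All 8 members and Fto were named, with genes of the other lists past the filter, and for each member the 3 genes with the highest Pearson r (mean TPM of 5 or more). 1 listed complement gene is not reported here. The members and lists were chosen with earlier results of these data known. The alternatives are in the closing section; leaving out both doubted shScram libraries together was chosen after seeing the data.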

Additional observations from a re-analysis of the deposited data

Results flagged for a closer look

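In 5 cases the effect of the knockdown on a complement gene differed between stages by the interaction test in limma. For C3 the log2 difference of shFto against shScram changed by -2.22 from Pre to MCE and by -2.12 from Pre to Diff. For C4b it changed by 1.34 from MCE to Diff. For Cd55 the 2 values past the threshold were 1.17 from Pre to Diff and 1.05 from MCE to Diff, which are a description, since the 2 shFto libraries at Diff alone brought it past the filter. For Serping1 it changed by -1.67 from Pre to MCE and by 1.87 from MCE to Diff. All values are on the log2(TPM + 1) scale, and those of Cd55 and Serping1 involve groups near 0 TPM.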

How the results depend on the processing

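Limits were 2 libraries per group, no depth in TPM, and a control library that stood apart. The member values counted next take in changes of the knockdown effect only where these were called, and they include Cd55. Their share called is therefore not a result. Of 63 values of the members, 37 were called; none of these reversed under 28 alternatives, and 25 were called under each that gave a p. The number of members called at Pre was 5, and 3 with no filter on low values, 3 with a mean TPM of 5 or more, 2 with weights per library, 2 by the study's rule (fold change and unadjusted p), and 0 in a fit of those libraries alone, where 0 genes of the table were called (1555 higher and 1235 lower at an unadjusted p under 0.05). At MCE it was 3, and 5 with weights per library, with a GC correction or without both doubted libraries. At Diff it was 4 with Cd55 counted, as in the counts that follow, and 2 with a mean TPM of 5 or more, which Cd55 and Serping1 do not reach, 6 with weights per library or in a fit of those libraries alone (C1ra and Cfb in addition), and 5 without both doubted libraries. In shScram it was 4 from Pre to MCE, and 2 in a fit of those libraries alone, and 3 from MCE to Diff, and 5 with weights per library. For changes of the knockdown effect it was 2 from Pre to MCE (1 with a mean TPM of 5 or more or with weights per library), 2 from Pre to Diff (1 under either, and in a fit of fewer libraries) and 3 from MCE to Diff (0 with a pseudocount of 0.1, 1 with a mean TPM of 5 or more).

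Leaving out single libraries gave 2 to 5 at Pre, the lowest without either shFto Pre library and 3 without an shFto MCE or any Diff library. It gave 3 to 5 at MCE, 4 to 6 at Diff, 4 to 5 and 3 to 5 for the steps of shScram, with the highest count without either shScram Pre library in each case but the step from Pre to MCE, where it was without replicate 2. The changes of the knockdown effect gave 2 to 4, 2 to 4 (4 without shScram Pre replicate 2) and 1 to 3, with 1 without shScram MCE replicate 1, shScram Diff replicate 2 or any shFto MCE or Diff library. The cause was not tested.

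Values that were not called and reversed were as follows. At Pre, Cd55 was 0.35 with a GC correction and C2 ranged from -0.29 to 0.18 over left-out libraries. C1ra at MCE was -0.09 with its copy summed. From Pre to MCE, Cd55 in shScram was 0.53 with a GC correction, and C2 in shFto was 0.10 with median-ratio and trimmed-mean scaling, 0.31 with quantile normalization, 0.18 with a GC correction and -0.27 to 0.20 over left-out libraries. From MCE to Diff, Cfb in shScram was -0.04 with median-ratio and trimmed-mean scaling, -0.25 with quantile normalization and -0.12 to 0.44 over left-out libraries. Over that step in shFto, C2 was -0.30 with quantile normalization, and Cfb was -0.30 with it and -0.12 with the other scalings and a GC correction.

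Same-numbered libraries shared only a number: their deviations from the group means correlated at -0.29 to 0.172. With the replicate number as a block, 4 members were called at Pre and 2 for the change of the knockdown effect from MCE to Diff, and the other counts were the same.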

Other observations

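A list of 28 genes of signalling routes that are known to act on complement genes was measured too, and 24 of them passed the filter. It holds cytokines, receptors, kinases, transcription factors and the inhibitor gene Nfkbia. At Pre 5 were higher in shFto and 1 lower, at MCE 8 and 3, and at Diff 8 and 3, in limma at an adjusted p under 0.05, where 28.2%, 17.8% and 21.2% of all tested genes were called. The higher genes include Ifnb1 at Pre and Il6 at every stage, which passed the filter through shFto libraries, so their calls are a description. The counts take in these genes, and the list was chosen with earlier results of these data known, so the share called is not a result. Stat2 and Irf9, partners in the response to type I interferon, showed no call at Pre and were higher in shFto at both later stages (1.51 and 1.09 at MCE). Il6, an inducer of acute phase genes, was at 0.256 and 0.672 TPM in shScram and 2.23 and 2.14 in shFto at Pre, at 0.806 and 2.03 against 9.27 and 10.6 at MCE, and at 0.452 and 0 against 1.86 and 1.43 at Diff. Its shFto libraries were above its shScram libraries at each stage, and the difference was past the threshold at all 3 (1.14, 2.22 and 1.13). Among the shScram libraries only replicate 2 at MCE reached 1 TPM. Il6 thus passed the filter through its shFto libraries, and these differences are a description. Stat3 was higher by 0.42, 0.49 and 0.75. Il6ra, Nfkbia and Ifngr1 were lower in shFto at both later stages (-1.46, -0.96 and -0.56 at MCE).

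Cebpb, which encodes a C/EBP factor of early adipogenesis, was at 35.9 and 199.6 TPM in the 2 shScram libraries at Pre and at 346 and 367 in shFto. In that group the low value belongs to the library that stood apart. At MCE it was at 676 and 701 against 1211 and 1273. Whether any of these genes acts on the complement genes was not tested.

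Myeloid cells also make complement proteins. Of 10 myeloid markers, 4 passed the filter and Adgre1 and Tyrobp were listed at 0 in every library. The summed level of the list was 7.17 to 27.5 TPM in the shScram libraries and 36.2 to 51.1 in the shFto libraries. Most of the gap between the lines lay in Cd14, which was at 3.37 to 11.6 TPM in shScram and 18.6 to 48.4 in shFto. Of the others past the filter, Lyz2 was called higher in shFto at Pre alone, and Cd68 and Aif1 were called at no stage. The sum thus does not show a general rise of myeloid markers. What part Cd14 has in the levels of C4b and Serping1 was not tested.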
